A study of Homo sapiens with 9 samples.

Results

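MYC, MAX, the MXD and MNT repressors and the MYC target ODC1 were followed by ribosome profiling through activation of a human T cell line. Ribosome profiling counts the short mRNA fragments protected by translating ribosomes, so a gene's footprint count combines the amount of its mRNA with how heavily that mRNA is translated. The 7 genes were taken by Ensembl ID from a table of 19569 IDs, as MYC (ENSG00000136997.21), MAX (ENSG00000125952.20), MXD1 (ENSG00000059728.11), MXI1 (ENSG00000119950.21), MXD4 (ENSG00000123933.17), MNT (ENSG00000070444.15) and ODC1 (ENSG00000115758.13). They lie on chromosomes 8, 14, 2, 10, 4, 17 and 2 in that order. All 7 had counts in every library and passed the low-count filter, which left 13920 IDs to test.

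The cells were Jurkat clone E6-1, a clonal T lymphoblast line from a leukaemia that proliferates without stimulation, so resting cells here are unstimulated and not quiescent. The 3 groups, each of 3 biological replicates, were unstimulated cells at rest, a 5 h activation and a 12 h activation. Activation used plates coated with 10 µg/mL of anti-CD3 and medium holding 5 µg/mL of anti-CD28, which together engage the T cell receptor complex and its costimulatory receptor CD28. Resting cells received neither antibody, and no group carried a genetic change that the labels name. The resting libraries are labelled 0 h, and no unstimulated library is labelled 5 h or 12 h. Differences due to the antibodies and to time in culture therefore cannot be told apart.

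MYC is a short-lived transcription factor that drives growth and division, and it binds DNA only as a dimer with MAX. The MXD proteins and MNT also dimerise with MAX, occupy the same E-box sites and recruit SIN3 corepressor complexes, so they oppose MYC at shared targets. In primary T cells MYC is induced after receptor stimulation and supports the metabolic changes of growth. ODC1 encodes ornithine decarboxylase, which makes putrescine in the rate-limiting step of polyamine synthesis, and is a long-known direct target of MYC and MAX.

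The E-box that these dimers prefer, CACGTG, reads alike on both strands, and 4 copies in total occurred across the RefSeq start windows (GRCh38.p14) found for 6 of the 7 genes. For MYC no window was used. Each window runs from 250 bases before to 50 bases after an annotated transcription start. The windows that hold the E-box are shown because they separate ODC1 and the repressors MXD4 and MNT from MAX and MXD1, in whose windows neither CACGTG nor the related CACGCG occurred. The ODC1 window is that of the more downstream of its listed starts, on the minus strand at chr2:10447963-10448262. The MXD4 window is on the minus strand at chr4:2262060-2262359, and the MNT window on the minus strand at chr17:2401011-2401310. Capitals mark CACGTG, and each sequence runs 5′ to 3′.
ODC1: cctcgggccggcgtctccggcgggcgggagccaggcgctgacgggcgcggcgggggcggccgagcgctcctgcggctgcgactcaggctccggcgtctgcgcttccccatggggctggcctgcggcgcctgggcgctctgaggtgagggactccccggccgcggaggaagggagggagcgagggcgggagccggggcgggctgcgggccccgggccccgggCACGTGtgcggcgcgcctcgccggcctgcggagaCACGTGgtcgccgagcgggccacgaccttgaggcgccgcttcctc
MXD4: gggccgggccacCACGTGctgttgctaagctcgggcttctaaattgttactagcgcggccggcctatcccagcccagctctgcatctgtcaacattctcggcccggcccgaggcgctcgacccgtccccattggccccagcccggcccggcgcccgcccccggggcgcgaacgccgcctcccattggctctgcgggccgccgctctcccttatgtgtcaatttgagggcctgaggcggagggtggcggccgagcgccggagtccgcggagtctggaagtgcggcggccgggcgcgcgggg
MNT: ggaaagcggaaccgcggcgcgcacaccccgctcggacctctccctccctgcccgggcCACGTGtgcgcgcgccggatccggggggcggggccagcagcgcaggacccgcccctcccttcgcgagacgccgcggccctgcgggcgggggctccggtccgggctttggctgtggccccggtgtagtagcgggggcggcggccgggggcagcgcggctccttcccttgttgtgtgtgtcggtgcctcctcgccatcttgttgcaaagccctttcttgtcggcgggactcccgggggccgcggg
The ODC1 window held 2 copies, with first bases 29 bases before the start and at base 6 after it. In MXD4 the copy began 238 bases before the start, and in MNT 193 bases before it. The upstream ODC1 window and every MXI1 window held no CACGTG. Of all 35116 windows of this length in the table, 7.26% held CACGTG and 0.664% held 2 or more copies. By gene, 8.77% of 27305 genes held CACGTG in at least 1 window. CACGCG, searched on both strands, was found in 11.4% of all windows, in 2 overlapping matches at the upstream ODC1 start and in 1 match at the most downstream MXI1 start. These matches describe the letters only, since binding was not measured here.

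The shallowest library, 12 h replicate 2, held 4343515 counts and the deepest, 5 h replicate 3, held 18506509. The fit gave a common biological coefficient of variation of 15.6%. Levels are given as CPM, footprint counts divided by library size after scaling by the trimmed mean of M values (TMM), so they are relative to the other footprints of a library and would not show a change in total footprints per cell. Fewer expressing cells and less RNA or translation per cell cannot be told apart in these bulk libraries. Only the 7 genes are named. The Ensembl IDs of T cell markers, activation markers, further pathway genes and other MYC targets were not paired with names in the tables used, and those genes were not analysed here.

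At 5 h 1 of the 7 genes, ODC1, was called higher than at rest and 2, MYC and MAX, were called lower, by edgeR at an adjusted p under 0.05. Among all tested IDs 34.8% were called in that comparison, 16.2% higher and 18.6% lower. At 12 h the same 3 genes were called in the same directions, against 35.6% of all IDs, with 16.1% higher and 19.5% lower, and both comparisons share the resting libraries. Between 12 h and 5 h MXI1 was called higher, and MYC and ODC1 lower, against 25.6% of all IDs, with 11.9% higher and 13.7% lower. The libraries of the groups did not overlap for 4 of the 7 genes at 5 h versus rest, 3 at 12 h versus rest and 4 at 12 h versus 5 h, against 45.7%, 45.8% and 39.1% of all tested IDs. These counts are near the background and say nothing particular about the 7 genes as a set, so each gene is described by its own values. The median log2 fold change of the 7 was -0.04 at 5 h and 0.35 at 12 h, beside 0.07 and 0.04 for all tested IDs.

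**Figure D1:**
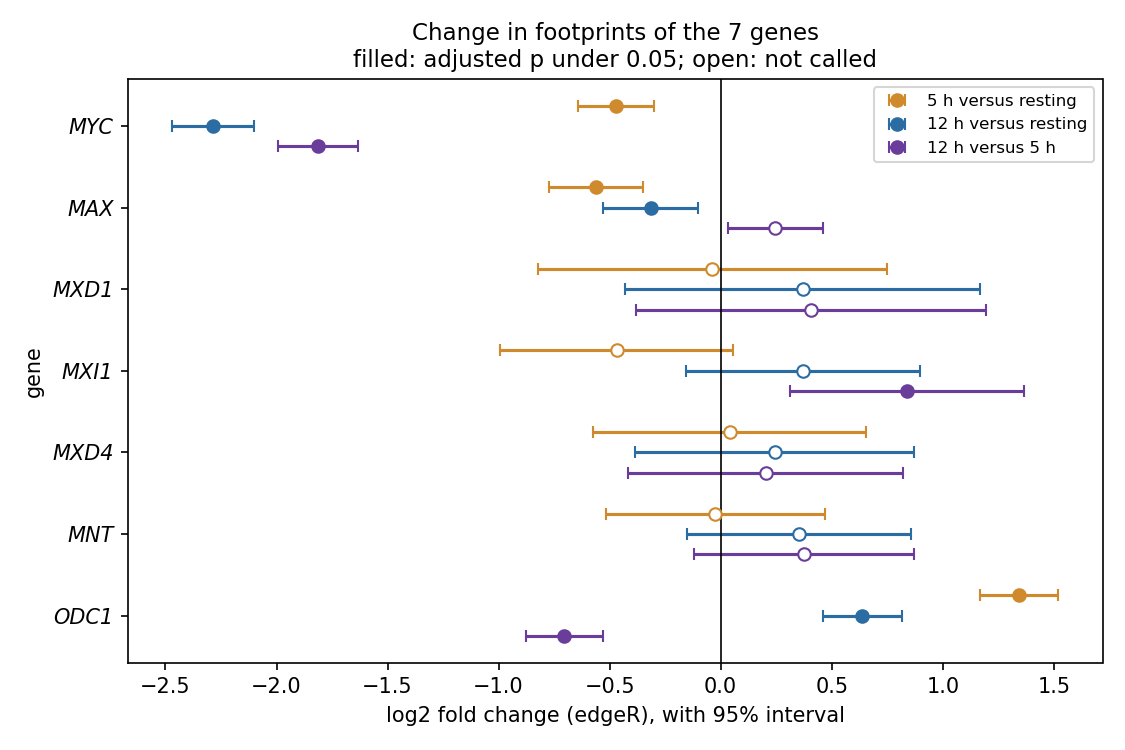
Log2 fold changes of the 7 genes in the 3 comparisons (horizontal axis, first-named group over the other), with 95% intervals from edgeR. Filled points were called at an adjusted p under 0.05. MYC at 12 h lies farthest from 0, ODC1 at 5 h is the largest rise, and the intervals of the 4 repressors are the widest.

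MYC footprints fell in steps, mildly by 5 h and steeply by 12 h. The resting libraries had 513, 503 and 488 CPM, the 5 h libraries 389, 325 and 371 CPM, and the 12 h libraries 103, 99.8 and 106 CPM. The 3 groups did not overlap, and the SD was 2.84% of the mean at 12 h and 2.47% at rest. MYC averaged 362 ± 33.1 CPM at 5 h and 501 ± 12.4 CPM at rest (SD, n = 3 each), a log2 fold change of -0.47 ± 0.08 (SE) with an edgeR adjusted p of 3.94e-05. At 12 h it averaged 103 ± 2.92 CPM, against 501 ± 12.4 CPM at rest, which is 4.87-fold lower. The log2 fold change was -2.28 ± 0.09, with a 95% interval from -2.47 to -2.10 and an adjusted p of 5.36e-19.

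The late fall was extreme for this data set while the early one was not. At 12 h, 36 of the 13920 tested IDs had a lower log2 fold change against rest than MYC. At 5 h 16.2% of tested IDs had a lower value. Most of the decline came after 5 h: the 12 h libraries were 3.51-fold below the 5 h libraries, at a log2 fold change of -1.81 ± 0.09 (SE) with an edgeR adjusted p of 3.54e-16. In 12 h libraries MYC took 0.0108%, 0.0105% and 0.0112% of all counts, and in resting libraries 0.0477%, 0.0450% and 0.0464%. At least 456 footprints were counted for MYC in every library, so counting error was at most 4.68% of any value.

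**Figure D2:**
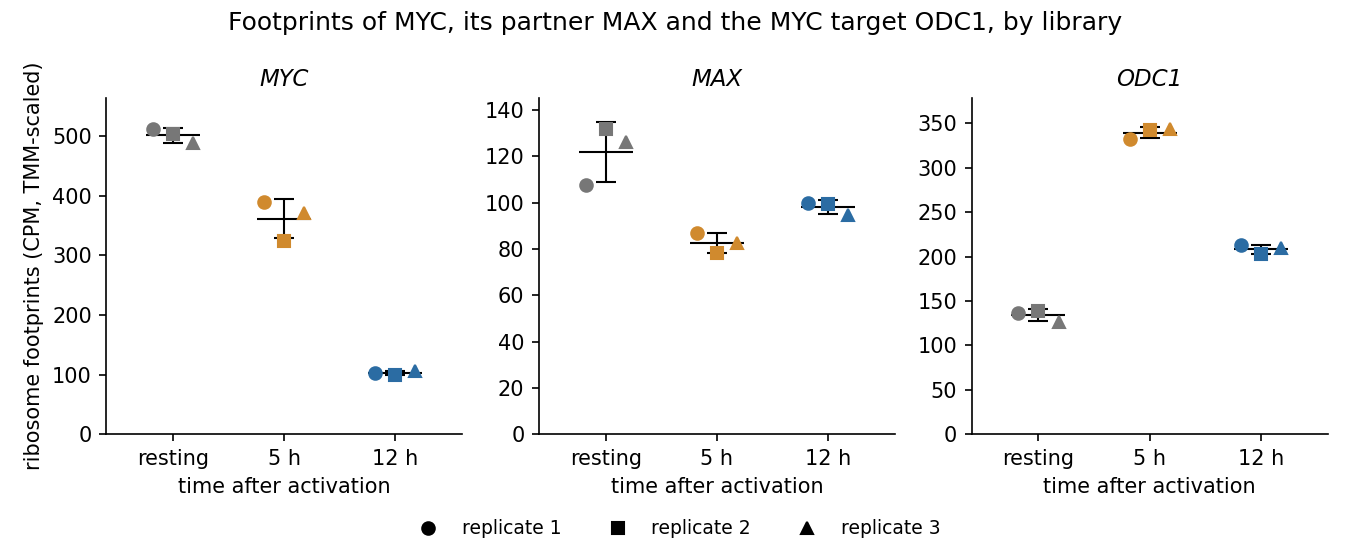
Footprints of MYC, MAX and ODC1 in CPM (vertical axes, from 0) by time after activation. Points are libraries with the replicate as symbol, and bars are the mean and SD of 3. MYC steps down through both times, MAX dips at 5 h, and ODC1 peaks at 5 h between 332 and 344 CPM.

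**Figure D3:**
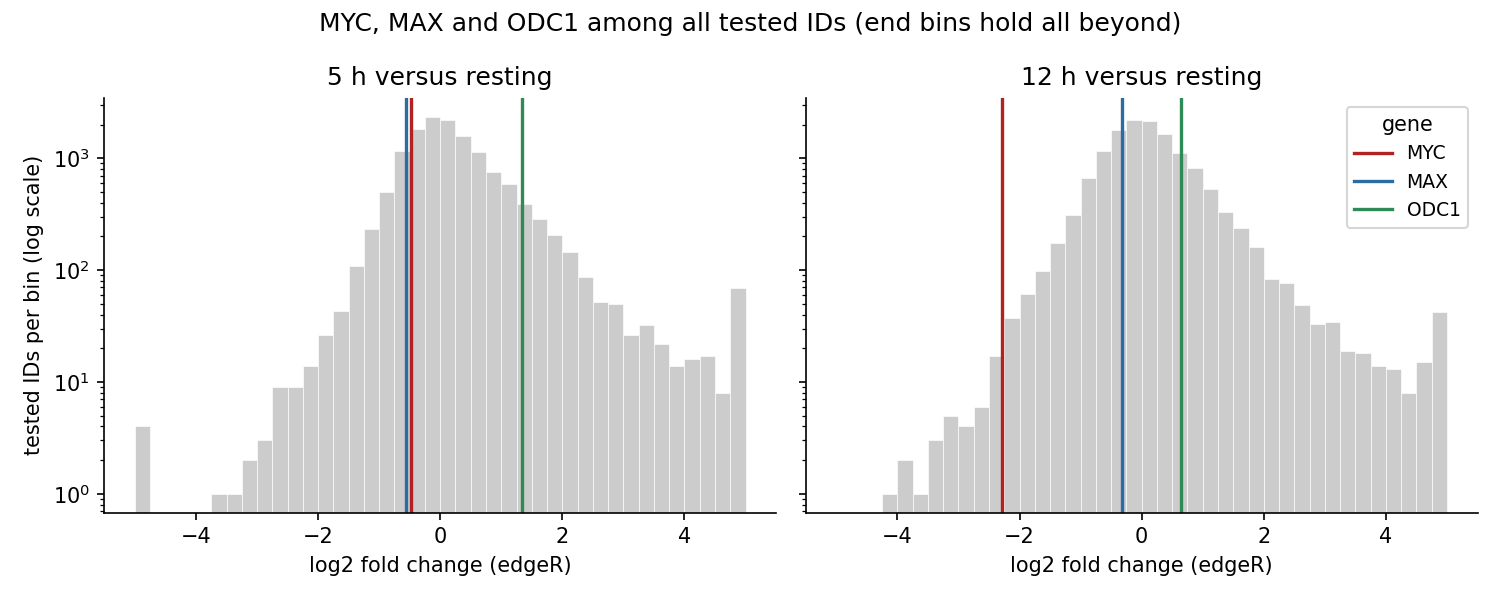
Number of tested IDs per log2 fold change bin (vertical axis, log scale) for 5 h and 12 h versus resting, with MYC, MAX and ODC1 as lines. At 12 h MYC stands in the far lower tail, with 36 IDs below it.

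MAX, the dimerisation partner that MYC needs and that its opponents also use, was lowest at 5 h. It had 107, 132 and 126 CPM in resting libraries, 86.9, 78.3 and 82.8 CPM at 5 h, and 99.8, 99.6 and 94.7 CPM at 12 h. Neither activated group overlapped the resting group or the other activated group. At 5 h MAX averaged 82.7 ± 4.28 CPM, against 122 ± 12.8 CPM at rest, a log2 fold change of -0.56 ± 0.10 (SE) with an edgeR adjusted p of 6.10e-05. At 12 h it averaged 98.0 ± 2.92 CPM, against the same 122 ± 12.8 CPM, and the log2 fold change was -0.31 ± 0.10 with an adjusted p of 0.0182.

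The 12 h call for MAX did not hold in every setting. The adjusted p by edgeR was 0.0621 without resting replicate 2, 0.0555 without resting replicate 3 and 0.0707 without 12 h replicate 3, at log2 fold changes of -0.26, -0.30 and -0.30. The difference of 12 h from 5 h, 0.25 ± 0.10 (log2, SE), missed the threshold at an adjusted p of 0.0849, although its 95% interval ran from 0.03 to 0.46. The gene-level count pools all MAX isoforms, of which RefSeq lists 29 curated transcripts.

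The 4 repressors were counted far less deeply, with 18 to 225 footprints a library, and none was called against rest at either time. MXD1, typically linked to differentiation and exit from the cell cycle, had 2.68, 4.18 and 4.77 CPM at rest, 3.43, 4.72 and 3.2 CPM at 5 h and 5.82, 3.94 and 5.11 CPM at 12 h. Its groups overlapped at both times. MNT, the widely expressed repressor of the network, had 10.2, 11.8 and 9.12 CPM at rest, 9.17, 9.07 and 12.2 CPM at 5 h and 10.2, 12.0 and 17.6 CPM at 12 h. MNT also overlapped throughout, and its highest value came from 12 h replicate 3. MXD4, a further MXD family repressor, had 10.9, 6.15 and 10.3 CPM at rest, 13.6, 6.60 and 8.20 CPM at 5 h and 11.5, 14.9 and 6.45 CPM at 12 h. Each MXD4 group contained a library above 10 CPM and another below 9 CPM, and all 3 groups overlapped.

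MXI1, an MXD relative also called MXD2, was the repressor that moved between the activated times. It had 10.2, 10.6 and 10.2 CPM at rest, 7.76, 6.15 and 8.42 CPM at 5 h and 18.6, 11.6 and 9.28 CPM at 12 h. All 5 h libraries lay below all libraries of the other groups, while the 12 h libraries spread around the resting ones. MXI1 averaged 13.2 ± 4.84 CPM at 12 h and 7.44 ± 1.17 CPM at 5 h (SD, n = 3 each), a log2 fold change of 0.84 ± 0.26 (SE) with an edgeR adjusted p of 0.0142. The size rests largely on 12 h replicate 1, without which it was 0.47 with an adjusted p of 0.279. Without 5 h replicate 2 it was 0.71, with an adjusted p of 0.0798. At 5 h versus rest, where the groups did not overlap (45.7% of all tested IDs did not), the log2 fold change was -0.47 ± 0.26 and the adjusted p 0.164.

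**Figure D4:**
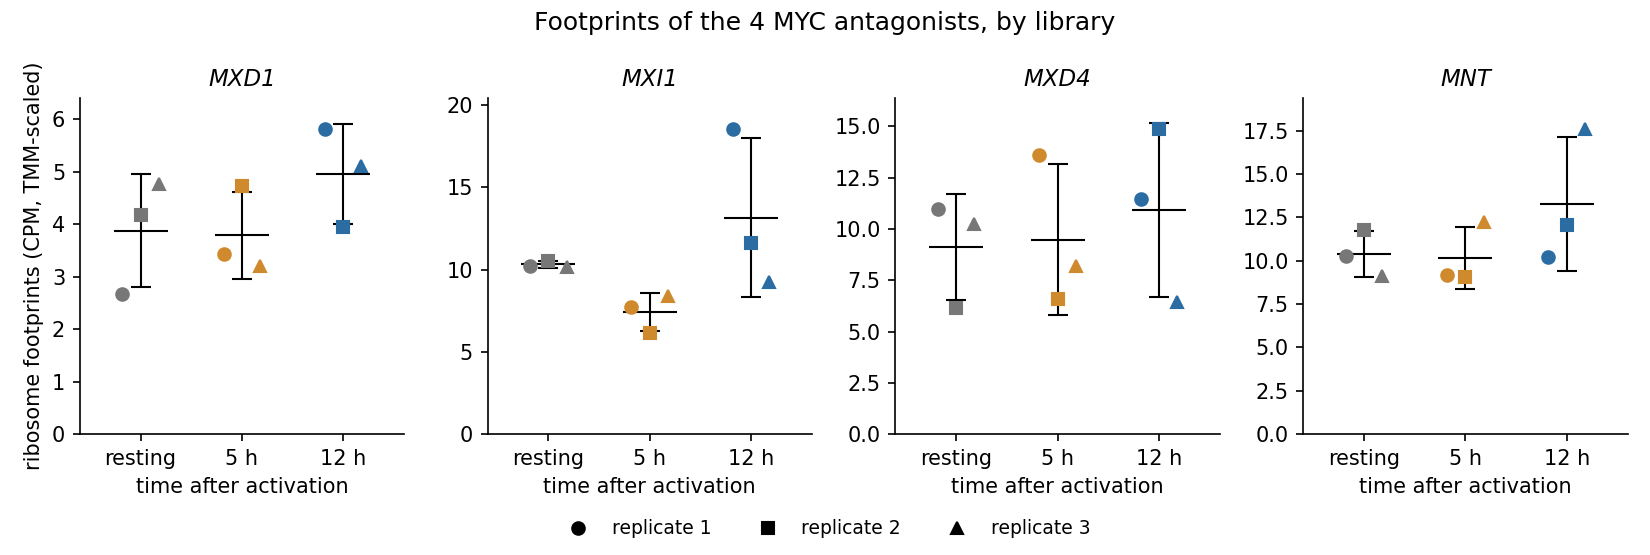
Footprints of MXD1, MXI1, MXD4 and MNT in CPM (vertical axes, from 0, different for each gene) by time after activation, with libraries as points and the mean and SD of 3 as bars. Of the 4 genes MXI1 is the one whose 5 h libraries lie below every other library.

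The intervals of the repressors were wide. At 12 h versus rest the 95% interval of the fold change ran from 0.743 to 2.24 for MXD1, 0.898 to 1.86 for MXI1, 0.766 to 1.83 for MXD4 and 0.901 to 1.81 for MNT. A fall of the size of MYC's lay outside all 4, but a rise to 1.8-fold lay inside all of them. Library-to-library spread was larger than counting error for some of these values. At 12 h the SD of MXI1 was 36.8% of its mean and that of MXD4 38.8%, while counting error of the single libraries was 6.79% to 13.7% for MXI1 and 8.64% to 14.4% for MXD4. The 4 repressors together had 34.1, 32.6 and 34.3 CPM at rest, 34.0, 26.5 and 32.0 CPM at 5 h and 46.0, 42.5 and 38.5 CPM at 12 h. All 12 h sums lay above all others, and no test was made on the sum because it is a score over chosen genes. How often sums of other genes separate in this way was not computed. The largest part of the 12 h sum differed by library: MXI1 with 18.6 CPM in replicate 1, MXD4 with 14.9 CPM in replicate 2 and MNT with 17.6 CPM in replicate 3. Mean levels at 12 h were 128% of rest for MXD1, 127% for MXI1, 120% for MXD4 and 128% for MNT. None of the 4 genes was called against rest, and whether they rose jointly was not tested.

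ODC1 went the other way from MYC at 5 h and stayed above rest at 12 h. The resting libraries had 137, 139 and 126 CPM, the 5 h libraries 332, 343 and 344 CPM, and the 12 h libraries 213, 202 and 210 CPM. The 3 groups did not overlap, and the 12 h values lay between the others. At 5 h ODC1 averaged 339 ± 6.70 CPM, against 134 ± 6.78 CPM at rest (SD, n = 3 each), which is 2.54-fold higher. The log2 fold change was 1.34 ± 0.09 (SE) with an adjusted p of 6.75e-14 by edgeR, and 91.0% of tested IDs had a lower value. At 12 h it averaged 208 ± 5.28 CPM, 1.56-fold above rest, at a log2 fold change of 0.64 ± 0.09 and an adjusted p of 5.56e-07. The decline between the times was itself called, with 12 h 1.63-fold below 5 h, a log2 fold change of -0.70 ± 0.09 and an adjusted p of 1.16e-07. ODC1 was thus called higher than at rest at both times. A link between the E-box letters shown above and the levels of any gene was not tested.

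Ratios of counts within a library do not depend on library scaling. They were not corrected for coding length, so the level of a ratio has no meaning as stoichiometry and only its course over time is described. MYC footprints per MAX footprint were 4.77, 3.81 and 3.87 at rest, 4.48, 4.15 and 4.48 at 5 h, and 1.03, 1.00 and 1.12 at 12 h. Both genes had fallen by 5 h, and their ratio there overlapped that at rest. By 12 h all ratios lay far below the others, and the mean was 3.95-fold below rest. MYC per summed footprints of MXD1, MXI1, MXD4 and MNT was 15.0, 15.4 and 14.2 at rest, 11.5, 12.2 and 11.6 at 5 h, and 2.24, 2.35 and 2.75 at 12 h. The 3 groups did not overlap in this ratio, and the 12 h mean was 6.09-fold below rest. MYC alone also separated the 3 groups, and how often ratios of other genes separate was not computed.

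ODC1 per MYC climbed at each time. It was 0.267, 0.275 and 0.258 at rest, 0.853, 1.05 and 0.927 at 5 h, and 2.06, 2.03 and 1.98 at 12 h. The mean ratio was 3.54-fold above rest at 5 h and 7.59-fold above rest at 12 h. Between 5 h and 12 h both genes fell, MYC by the larger factor.

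**Figure D5:**
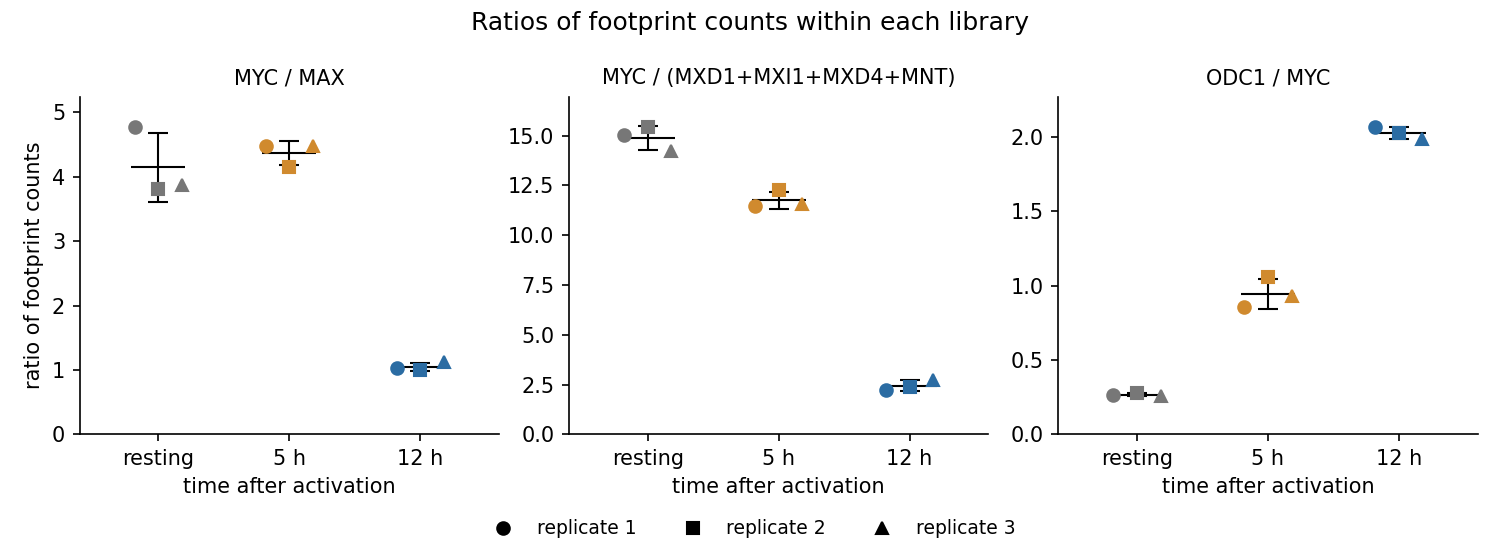
Ratios of footprint counts within each library (vertical axes, from 0, no length correction) by time after activation, with libraries as points and the mean and SD of 3 as bars. MYC per MAX holds at 5 h and drops by 12 h, MYC per summed repressor drops at both times, and ODC1 per MYC climbs at both.

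Across the 9 libraries, which share the 3 groups and their scaling, the log2 levels of MAX and ODC1 ran opposite, with a Pearson r of -0.94. MYC followed neither closely, with r of 0.25 to MAX and -0.17 to ODC1. Its r with each of the 4 repressors was negative, from -0.55 for MXD1 to -0.20 for MXD4. These values are descriptions of 9 points that cluster by group.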

How the data were processed

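The authors deposited whole-number footprint counts per versioned Ensembl gene ID for 9 libraries, and a second table of log2 values. Tools listed by the submitters' processing notes are Bowtie, cutadapt 3.2, RSEM, bedtools and DESeq2, with the build GRCh38.p13 and no role for each. Counting rules, annotation release and the isolation of footprints were not stated there. The deposited log2 values equal log2 of the count over 1 size factor per library, plus 1 (largest difference 5.03e-09, over 11572 IDs, which include all 7 genes). The mRNA values of the study were not used here. Footprints are short, and isoforms of a gene are pooled.

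All 9 libraries entered 1 edgeR 4.0.16 fit (R 4.3.3) by group, with TMM scaling, filterByExpr and the robust quasi-likelihood test. P-values were adjusted by Benjamini-Hochberg over the 13920 IDs tested, with calls at 0.05. The procedure was tested on simulated data. P-values measure the spread between cultures labelled as biological replicates. SE is the log2 fold change divided by the root of the F statistic, and intervals are 95%. Counting error is 1 over the root of the count and covers counting only. Same-numbered libraries of different groups did not deviate together, with correlations from -0.06 to 0.09.

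The genes and lists were chosen with earlier results of these data known. All 7 genes are named by rule. Further lists (other network genes, MYC cofactors and turnover, polyamine genes, MYC targets, cell type markers) and most-alike genes required symbols, and none of the 59792 rows of the name table held an Ensembl ID, so these lists were not analysed here. Coding lengths were not given, so the planned ratio per kilobase was computed on counts. Alternatives were upper quartile scaling, DESeq2 1.42.0, limma 3.58.1 on the authors' log2 values, other filters, 6 libraries only, a replicate block, and each library left out. Promoter sequences come from RefSeq GRCh38.p14, matched by symbol.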

Additional observations from a re-analysis of the deposited data

Results flagged for a closer look

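Levels differed between the 12 h and 5 h activations, tested directly by edgeR, for 3 of the 7 genes, against 25.6% of all tested IDs. MYC was lower at 12 h, at a log2 difference of -1.81 and in 3 of 3 libraries. MXI1 was higher at 12 h, at 0.84 and in 3 of 3 libraries, with single libraries deciding the call: 12 h replicate 1 and 5 h replicate 2. ODC1 was lower at 12 h, at -0.70 and in 3 of 3 libraries. Groups of 3 libraries were not searched for outlying values.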

How the results depend on the processing

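All 13 alternatives of each comparison kept the direction and the call for MYC at 5 h (log2 fold change from -0.53 to -0.41) and 12 h (from -2.32 to -2.20), for MAX at 5 h (from -0.65 to -0.51) and for ODC1 at 5 h (from 1.29 to 1.39) and 12 h (from 0.59 to 0.72). The differences of 12 h from 5 h held likewise for MYC (from -1.89 to -1.76) and ODC1 (from -0.73 to -0.66). With at least 50 counts in 3 libraries MAX at 12 h versus rest missed the threshold, at an adjusted p of 0.0604 by edgeR. MAX at 12 h versus 5 h passed it under 5 alternatives, with adjusted p from 0.0308 to 0.0496. The count of called genes stayed between 2 and 4 throughout. The replicate block left 3 genes called in each comparison and changed no call, and the same-numbered libraries are not paired by any label. Signs turned only for uncalled values of the repressors. With at least 50 counts in 3 libraries, MXD1 was 0.0059 and MNT 0.022 at 5 h versus rest. With single libraries left out, the 5 h values against rest ran from -0.25 to 0.13 for MXD1, from -0.30 to 0.24 for MXD4 and from -0.22 to 0.071 for MNT. The 12 h values against rest ran from -0.000877 to 0.56 for MXI1 and from -0.018 to 0.50 for MXD4, and MXD4 at 12 h versus 5 h from -0.053 to 0.53. The cause was not tested. MYC per summed repressor, with each library left out, ran from 2.29 to 2.55 at 12 h, 11.5 to 11.9 at 5 h and 14.6 to 15.2 at rest. The ratio with MXD3 and MGA added and the ratio per kilobase were not run. The repressors had as few as 18 counts in a library, and the part of depth in their wide intervals was not tested.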

Other observations

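Some other IDs followed the courses of MYC and ODC1 closely, and the number that follow a typical ID was not computed. Among 7738 other tested IDs averaging at least 16 CPM, 137 had a Pearson r above 0.95 with MYC over the 9 libraries, on log2 CPM, and 83 had an r below -0.95. ODC1 had 138 IDs above 0.95 and 110 below -0.95, and MAX had 13 and 12. None of the 4 repressors had an ID beyond 0.95 in either direction, and their highest r ran from 0.89 for MNT to 0.92 for MXD1. The repressors averaged at most 13.3 CPM in any group, with counting error up to 23.6% in a library. The part of that error in their lower r was not tested. The IDs are not paired with names in the tables used, and the points fall into 3 groups, so these counts describe courses only.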
